A study of Mus musculus with 43 samples.

Results

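The genes examined here make estrogen or carry its signal. They are Hsd17b1, Hsd17b7 and Cyp19a1, which encode enzymes of estrogen synthesis, the estrogen receptor genes Esr1 and Esr2, and Shbg, which encodes a globulin that binds sex steroids. All probe sets annotated to these 6 genes were taken, 11 of the 45007 analysed, and the brightest probe set stood for each gene, which left 6 of 18185 genes. The probe set of Cyp19a1 carried no symbol in the array annotation and was named from the probe set lists of the study, so 5 of the 6 genes came from the annotation itself. Gene expression was measured on Affymetrix MOE430 v.2 arrays in whole mouse gonads freed of adjacent tissue, with 1 animal per array and 43 arrays in 15 groups. Groups held 3 arrays, except those of embryonic day 15 (E15), which held 2. Ovaries were taken at E13 (Foxl2-null, with controls that the labels give as Foxl2+/- and the methods as wild-type littermates), at E15 (Wnt4-null, with Wnt4+/- controls), at E16 (Foxl2-null, Foxl2+/- and wild type) and at birth (P0). The P0 ovaries were wild type, Foxl2-null, Wnt4-null, null for both Wnt4 and Foxl2 (double null), Kit Wv/Wv, and Kit Wv/Wv with Foxl2 lost. The Wnt4-null and Kit Wv/Wv single mutants of P0 each carried Foxl2+/-, and Wv is a hypomorphic allele, so some Kit function remains. Testes were taken at E13 and at P0, the latter, per the methods, from Wnt4-null mice. No Cre or cell type restriction was named for the nulls. The E15 mice came from another mixture of strains than the other mice.

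Estrogens are made from androgens by aromatase, the product of Cyp19a1, and Hsd17b1 turns the weak estrogen estrone into the potent estradiol. Hsd17b7 can perform the same step and also serves the synthesis of cholesterol, from which all steroids derive. Estradiol acts through the nuclear receptors Esr1 and Esr2, of which Esr2 is the main form of granulosa cells, which surround and nourish the oocyte. Foxl2 is a forkhead transcription factor of those cells and their precursors, Wnt4 is a secreted signal of the fetal ovary that holds back steroid-producing cells, and Kit is a receptor on which germ cells depend.

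Cyp19a1 and Esr2 were the members that fell when Foxl2 was lost at birth, and their promoter windows are shown for that reason. RefSeq windows from 250 bases before to 50 bases after a transcript start (mouse GRCm38.p6) were on hand for 5 of the 6 genes, 8 windows in all, with 3 for Cyp19a1 and none used here for Hsd17b1. The Cyp19a1 windows lie on the minus strand at chr9:54268115-54268414 (A), chr9:54228865-54229164 (B) and chr9:54193694-54193993 (C), and the Esr2 window on the minus strand at chr12:76177210-76177509. Sequences run 5′ to 3′ along the gene. Capitals mark GGTCA, the core of nuclear receptor half-sites, and AAACA, the core of forkhead sites, on either strand, so that TGACC and TGTTT are their reverse forms.
Cyp19a1 window A: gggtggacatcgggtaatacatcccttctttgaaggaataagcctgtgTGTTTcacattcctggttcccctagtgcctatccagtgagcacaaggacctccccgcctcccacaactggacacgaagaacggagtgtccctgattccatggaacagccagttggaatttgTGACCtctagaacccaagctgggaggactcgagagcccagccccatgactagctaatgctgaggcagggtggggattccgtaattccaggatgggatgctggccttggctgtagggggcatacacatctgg
Cyp19a1 window B: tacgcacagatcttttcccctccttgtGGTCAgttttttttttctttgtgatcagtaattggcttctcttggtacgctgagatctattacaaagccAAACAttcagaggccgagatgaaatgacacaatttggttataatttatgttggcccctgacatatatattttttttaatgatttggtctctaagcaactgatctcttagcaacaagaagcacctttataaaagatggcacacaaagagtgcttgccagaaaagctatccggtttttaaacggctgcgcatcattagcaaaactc
Cyp19a1 window C: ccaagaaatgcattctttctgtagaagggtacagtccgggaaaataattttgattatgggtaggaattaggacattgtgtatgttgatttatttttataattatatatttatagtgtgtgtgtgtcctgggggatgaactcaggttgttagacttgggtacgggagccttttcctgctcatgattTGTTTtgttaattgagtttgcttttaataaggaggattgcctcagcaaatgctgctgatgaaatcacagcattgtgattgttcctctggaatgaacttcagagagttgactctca
Esr2 window: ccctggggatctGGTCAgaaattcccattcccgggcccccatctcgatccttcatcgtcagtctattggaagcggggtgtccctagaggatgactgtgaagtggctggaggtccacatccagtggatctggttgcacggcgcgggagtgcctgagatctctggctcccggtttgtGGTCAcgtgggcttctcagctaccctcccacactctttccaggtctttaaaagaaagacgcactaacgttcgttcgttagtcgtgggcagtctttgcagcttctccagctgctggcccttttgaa
Windows A and B of Cyp19a1 each held 1 GGTCA and 1 AAACA, window C held 1 AAACA alone, and the Esr2 window held 2 GGTCA and 0 AAACA. Over both strands, GGTCA was found in 6 of the 8 member windows and in 40.5% of the 32851 windows of all genes, and AAACA in 5 of 8 and in 50.5%. Longer forms were found in 0 of the 8 member windows. These were AAGGTCA, the extended half-site of the NR5A receptors (4.72% of all windows), GTAAACA, a longer forkhead core (3.65%), and the estrogen response element, an inverted pair of GGTCA half-sites 3 bases apart (0.07%). The first and the last of them contain GGTCA and the forkhead form contains AAACA. A match describes these letters and nothing about binding.

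Array medians lay between 0.1795 and 0.2949 of the common mean of an array, to which all signals below are relative, and replicate arrays correlated at 0.9222 to 0.9819. The number of arrays limits the precision. Foxl2 itself gave signals of 5.31 to 10.1 in E13 controls and 0.606 to 1.23 in Foxl2-null ovaries, of 14.6 to 16.8 and 1.36 to 2.42 at P0, of 5.13 to 5.9 in Wnt4-null and 0.682 to 0.826 in double null ovaries, and of 19.5 to 32.6 and 3.56 to 7.64 in the Kit mutant background. Wnt4 fell by 1.55 ± 0.34 (log2, SE) at E15 and by 1.36 ± 0.28 at P0 in Wnt4-null ovaries. Where these probes lie relative to the deletions was not given, so the remaining signal is not a level of intact transcript.

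The 6 members had unlike patterns over the 15 groups. Group means of Hsd17b1 ran from 0.0217 in Foxl2-null ovaries of P0 to 4.87 in Wnt4-null ovaries of P0. Group means ran from 0.00671 to 1.06 for Cyp19a1, from 0.018 to 0.264 for Esr2, from 0.112 to 0.981 for Shbg, from 0.659 to 2.57 for Esr1 and from 0.493 to 1.26 for Hsd17b7. When the groups were put in order of their means, most neighbours overlapped in their arrays: 12 of 14 neighbouring pairs for Hsd17b1, Esr2 and Shbg, 13 of 14 for Esr1 and 14 of 14 for Hsd17b7 and Cyp19a1. Group means near the pseudocount, as for Cyp19a1 at E13 and in ovaries that lacked Foxl2 with Wnt4 or Kit function, have no order among themselves. At the top of the order, Hsd17b1 in Wnt4-null ovaries of P0 lay above testes of P0 without overlap. The highest group was likewise clear of the next for Esr2 (Wnt4-null ovaries of E15 over those of P0). The same held for Shbg (testes of P0 over double null ovaries).

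**Figure D1:**
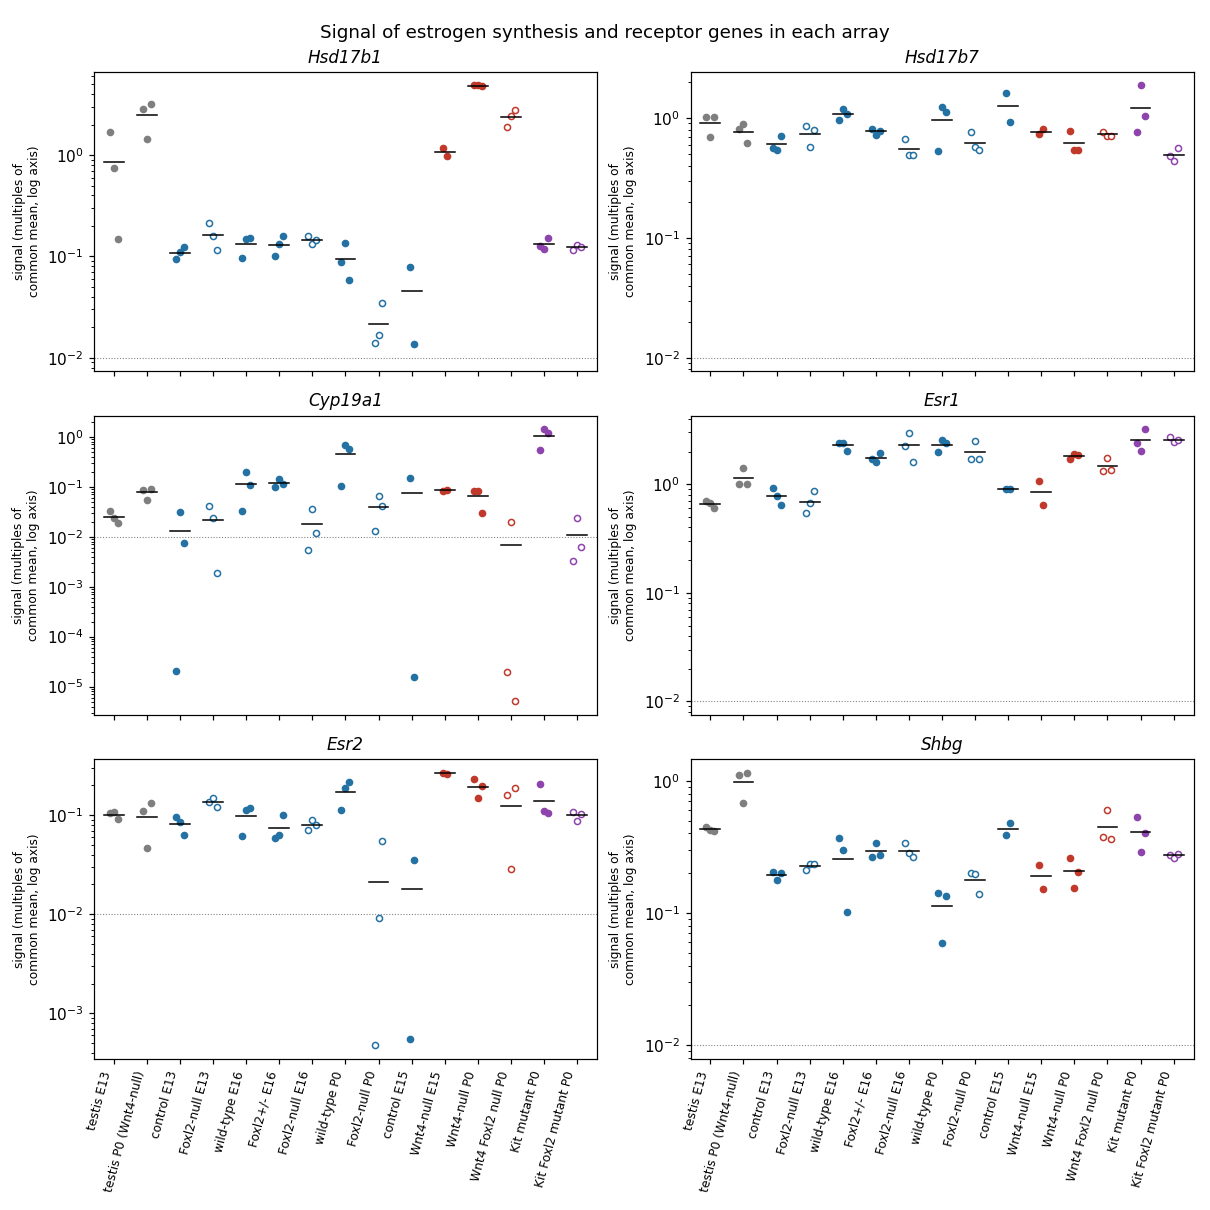
Signal of each member (brightest probe set, relative to the common mean of an array, log axis) in the 15 groups, with 1 point per array, a line at the group mean and a dotted line at the pseudocount of 0.01. Hsd17b1 is high in Wnt4-null ovaries (red; open symbols mark loss of Foxl2) and in testes (grey), and Cyp19a1 has its highest group mean in Kit mutant ovaries (purple) and lies near or under the pseudocount in double null ovaries.

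Changes are given as log2 differences of signals to which a pseudocount of 0.01 was added, with the standard error (SE) of 1 limma fit over all 43 arrays, and a gene was called at a Benjamini-Hochberg adjusted p under 0.05 over all probe sets. With signals as dim as those of Cyp19a1 and Esr2 in some groups, the pseudocount sets part of the size of a change. Loss of Wnt4 at E15 raised 2 of the 6 members (Hsd17b1 and Esr2), where 2.1% of all genes were called and 1.5% rose. At P0 it raised 1 (Hsd17b1) and lowered 1 (Cyp19a1), where 16.9% of all genes were called, 7.07% upward and 9.87% downward. Loss of Foxl2 lowered 2 members at P0 (Cyp19a1 and Esr2), where 0.83% of all genes were called and 0.583% fell, and 2 in the Kit mutant background (Cyp19a1 and Hsd17b7), where 1.15% were called and 0.863% fell. It called 0 of 6 at E13 (1.4% of all genes, 0 members at an unadjusted p under 0.05), 0 of 6 at E16 (0.66%, 2 members unadjusted), 0 of 6 over the average of E13, E16 and P0 (1.86%, 4 members unadjusted) and 0 of 6 in the Wnt4-null background (0.924%, 3 members unadjusted) by limma. Foxl2+/- ovaries of E16 likewise gave 0 of 6 by limma (0.0055% of all genes, 0 members unadjusted). Against wild type, the double null ovary had 2 members raised and 2 lowered, where 23.3% of all genes were called, 9.54% upward and 13.7% downward. The comparisons at P0 with wild type, Wnt4-null or Kit mutant ovaries share those control arrays.

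**Figure D2:**
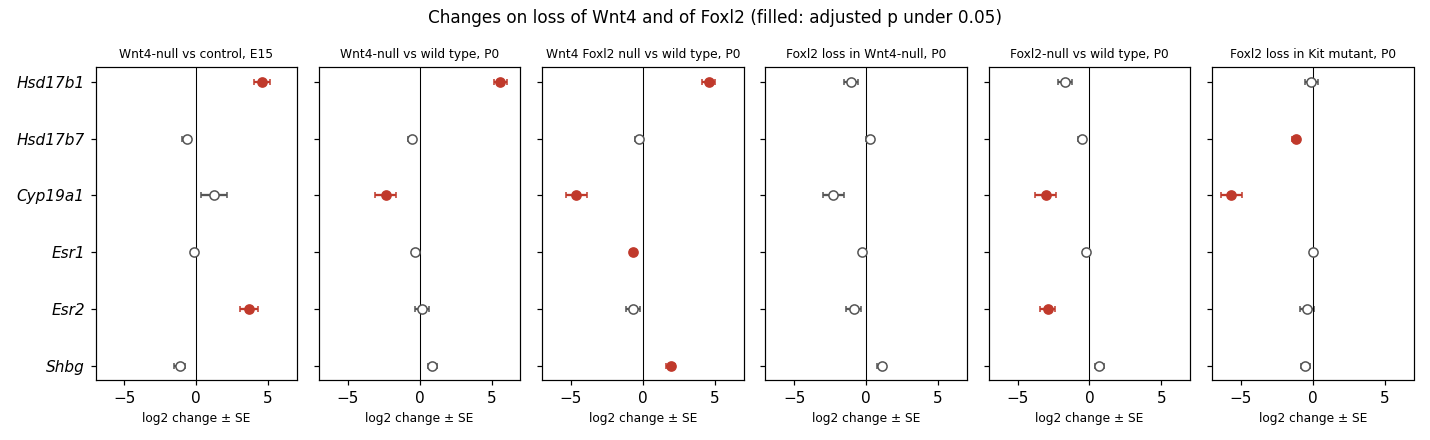
Log2 change (± SE) of the 6 members in 6 comparisons; filled symbols mark an adjusted p under 0.05. Hsd17b1 lies far to the positive side with loss of Wnt4, alone or with Foxl2, and Cyp19a1 lies on the negative side in each P0 comparison that removes Wnt4 or Foxl2.

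Hsd17b1, the enzyme that makes estradiol from estrone, rose in ovaries without Wnt4 at both ages. At E15 its signals were 0.0784 and 0.0135 in the controls and 1.17 and 0.97 in Wnt4-null ovaries. Both null arrays were above both controls, and the change was 4.56 ± 0.57 (log2, SE, n = 2 per group; 23.6-fold, adjusted p = 7.15e-06 in limma). The size rested in part on the dimmer control, since it was 3.61 without control array 2 and 5.51 without control array 1, called in either case. At P0 its signals were 0.0886, 0.135 and 0.058 in wild type and 4.87, 4.87 and 4.86 in Wnt4-null ovaries, which also carried Foxl2+/-, a change of 5.62 ± 0.47 (n = 3 per group; 49.3-fold, adjusted p = 1.12e-10 in limma), with no overlap. The change from E15 to P0 in the effect of Wnt4 on Hsd17b1 was 1.06 ± 0.74 (adjusted p = 0.608 in limma). The ages also differed in strain mixture and in genotype, with Wnt4+/- controls at E15 and wild type controls at P0.

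The rise of Hsd17b1 in the absence of Wnt4 remained when Foxl2 was lost as well. Signals in double null ovaries were 1.89, 2.45 and 2.82, all below the 3 Wnt4-null arrays and all above the wild type arrays of P0. Against wild type the change was 4.58 ± 0.47 (23.9-fold, adjusted p = 3.99e-09 in limma). Between double null and Wnt4-null ovaries the log2 difference was -1.04 ± 0.47 (95% interval -1.99 to -0.10) and was not called over all 43 arrays (adjusted p = 0.466 in limma), but a fit of these 6 arrays alone called it (adjusted p = 0.0049 in limma). In ovaries with intact Wnt4, Foxl2-null signals at P0 were 0.014, 0.0167 and 0.0343, below all 3 wild type arrays, a log2 difference of -1.70 ± 0.47 (adjusted p = 0.0893 in limma; -2.09 and called at a pseudocount of 0.1%, adjusted p = 0.0425). The interaction of Foxl2 with Wnt4 was 0.65 ± 0.66 for Hsd17b1 (adjusted p = 0.924 in limma). Its response to Foxl2 was thus not shown to differ between the 2 backgrounds. The Wnt4-null controls carried Foxl2+/- and those with intact Wnt4 were wild type, so background and control Foxl2 dose cannot be told apart. The gene was also not called with loss of Foxl2 at E13, at E16 or in the Kit mutant background, where ovaries held 0.128, 0.118 and 0.151 with Foxl2 and 0.115, 0.13 and 0.125 without it (-0.09 log2, adjusted p = 0.99 in limma).

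Hsd17b1 was also higher in testis than in ovary. It gave 1.69, 0.739 and 0.148 in testes of E13 against 0.0938, 0.11 and 0.123 in ovaries, a rise of 2.31 ± 0.47 (adjusted p = 0.000887 in limma), where 8.14% of all genes were called between testis and ovary and 2 of 6 members were. The 3 testes were far apart, with array 3 close to the ovaries. Without testis array 1 the change was 1.54, without testis array 3 it was 3.25, and with the 6 arrays fitted alone it was not called (adjusted p = 0.11). At P0 testes held 2.82, 1.46 and 3.22, a rise of 4.59 ± 0.47 over the ovary (adjusted p = 1.9e-09 in limma), where 28.9% of all genes and 4 of 6 members were called. These testes came from Wnt4-null mice and the ovaries from wild type, so sex and Wnt4 genotype cannot be told apart at P0, for Hsd17b1 or any other member. The genes whose brightest probe sets followed Hsd17b1 most closely over the 15 group means were Efna5 (Pearson r = 0.951), Plagl1 (0.938), Nrk (0.937), Scd2 (0.935) and Capn6 (0.932), among 12618 genes compared, as a description of 15 means.

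Adrenal cortex, Leydig and Sertoli markers were higher in the ovaries of P0 where Hsd17b1 was high. The summed signal of 4 adrenal cortex markers was 0.122 to 0.25 in wild type ovaries of P0, 2.83 to 6.36 in Wnt4-null and 1.62 to 5.32 in double null ovaries, with 2 of the 4 markers called as raised on Wnt4 loss (Cyp21a1 by 6.16 ± 0.53 log2). At E15 the sum was 0.14 to 0.253 in controls and 0.443 to 1.14 in Wnt4-null ovaries, with 0 of 4 called by limma and 2 at an unadjusted p under 0.05. The sum of 4 markers of Leydig cells, the androgen source of the testis, was 2.38 to 3.21 in wild type, 8.86 to 18.4 in Wnt4-null and 11.5 to 16.3 in double null ovaries of P0, with 3 of 4 called on Wnt4 loss. The sum of 10 markers of Sertoli cells, which line the tubules of the testis, was 5.62 to 6.87, 13.1 to 14.4 and 26.3 to 29.8 in the same groups, with 4 of 10 called on Wnt4 loss. The Sertoli sum was thus higher in double null than in Wnt4-null ovaries. Testes of P0 had sums of 0.604 to 1.1 for adrenal cortex, 10.3 to 20.5 for Leydig and 33.3 to 53.1 for Sertoli markers. At E15, when Hsd17b1 had already risen, the Leydig sum was 1.29 to 2.29 in controls and 2.74 to 4.57 in Wnt4-null ovaries, with 1 of 4 called, and the Sertoli sum was 4.13 to 6.82 and 5.87 to 5.92, with 1 of 10 raised and 1 lowered. Each of these markers had a group mean above the pseudocount in these 3 ovary groups of P0. Their part in the result was not tested. In whole gonads, a change in the number of cells of a type and a change in RNA per cell cannot be told apart.

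Cyp19a1, which encodes aromatase, was dim at E13 and was highest in ovaries of P0. Signals were 2.02e-05, 0.0307 and 0.00748 at E13, 0.0329, 0.196 and 0.11 at E16, and 0.104, 0.689 and 0.571 at P0. The rise from E13 to E16 was 2.41 ± 0.73 (adjusted p = 0.0358 in limma), where 9.03% of all genes and 3 of 6 members were called. That call was lost without E13 array 1 (adjusted p = 0.136) or 3 (0.151) and without E16 array 2 (0.201) or 3 (0.123), and without E16 array 1 the change was 3.03. It was also lost with these 6 arrays alone (0.0627), array medians made equal (0.0598), quantile normalization (0.0684) and pseudocounts of 0.1% (0.0592) and 5% (0.0549). From E16 to P0 the difference was 1.82 ± 0.73 and was not called (adjusted p = 0.0559 in limma), where 30.9% of all genes and 1 of 6 members were called. It was called with array medians made equal (2.19, adjusted p = 0.0249), quantile normalization (2.19, 0.0246), a pseudocount of 5% (1.48, 0.00843), the replicate block (0.0367), without E16 array 2 (2.33, 0.0356) and without P0 array 1 (2.64, 0.0106). The median change of all genes was 0.159 from E13 to E16 and -0.272 from E16 to P0.

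Loss of Foxl2 lowered Cyp19a1 at birth. Foxl2-null ovaries of P0 held 0.0127, 0.0648 and 0.0404, all below the 3 wild type arrays, and the gene fell by 3.03 ± 0.73 on the log2 scale (8.16-fold lower, adjusted p = 0.0355 in limma). The call rested on single arrays. With quantile normalization the call was not made (adjusted p = 0.052 in limma). It was lost without wild type array 2 (adjusted p = 0.278) or 3 (0.232), without null array 1 (0.242) or 3 (0.0858), with these 6 arrays fitted alone (0.132) and with a pseudocount of 0.1% (0.359), and without wild type array 1 the change was -3.85. At E16 Foxl2-null signals of 0.00552, 0.0351 and 0.0121 overlapped the wild type ones, with a log2 difference of -2.03 ± 0.73 (adjusted p = 0.433 in limma). At E13 the difference was 0.50 ± 0.73 (adjusted p = 0.761 in limma), with null signals of 0.0409, 0.0233 and 0.00188. The effect at P0 minus that at E13 was -3.53 ± 1.03 and was not called (adjusted p = 0.135 in limma; called without null array 3 of E13, -4.13 and 0.0369, or wild type array 1 of P0, -4.35 and 0.0353), where 0.324% of all genes and 1 of 6 members were called. Over the 3 ages together the log2 difference was -1.52 ± 0.42 (adjusted p = 0.0542 in limma), near the threshold: it was called with a pseudocount of 5% (0.0137), quantile normalization (0.041), the replicate block (0.0228) and without control array 1 or 3 or null array 1 of E13, wild type array 1 or null array 2 of E16, or wild type array 1 or null array 2 of P0 (-1.80 to -1.54, adjusted p = 0.0156 to 0.0498). By the labels the E13 controls were Foxl2+/- and those of E16 and P0 wild type, so control Foxl2 dose differed between the ages tested here. Foxl2+/- ovaries of E16 held 0.1, 0.142 and 0.116, inside the wild type range.

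Cyp19a1 also fell with loss of Foxl2 in the Kit mutant background. Kit mutant ovaries held 0.538, 1.41 and 1.21, and those that also lacked Foxl2 held 0.00329, 0.0233 and 0.00614, with no overlap. Of the latter, 2 were under the pseudocount. Cyp19a1 fell by 5.68 ± 0.73 on the log2 scale (adjusted p = 2.06e-05 in limma), and the log2 change was -6.75 to -4.09 with pseudocounts of 0.1% and 5%. The interaction of Foxl2 with Kit was -2.65 ± 1.03 for Cyp19a1 (adjusted p = 0.684 in limma; 0 of 6 members and 0.022% of all genes called, 4 members at an unadjusted p under 0.05), so the difference between the backgrounds was not shown. The Kit mutant controls carried Foxl2+/- and those with intact Kit were wild type, so background and control Foxl2 dose cannot be told apart. Against wild type, Kit mutant ovaries, which also carried Foxl2+/-, gave 1.45 ± 0.73 for Cyp19a1 (adjusted p = 0.138 in limma). At a pseudocount of 5% this was 1.31 and called (adjusted p = 0.0203 in limma). In that comparison 30.6% of all genes were called, 17.3% upward, 1 of 6 members rose and the median of all genes shifted by 0.226. Summed oocyte markers (10 genes) were 47.4 to 98.4 in wild type, 41.9 to 54.3 in Foxl2-null, 2.56 to 29.3 in Kit mutants with Foxl2 and 0.95 to 1.67 in those without it, all at P0.

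Without Wnt4, Cyp19a1 was not called at E15, when Hsd17b1 rose, and fell at P0. At E15 Wnt4-null ovaries held 0.0822 and 0.086, between the 2 controls at 0.153 and 1.58e-05, and the difference of 1.22 ± 0.89 was not called (adjusted p = 0.639 in limma). It turned from 3.23 without control array 1 to -0.79 without control array 2, so its direction was not settled. At P0 Wnt4-null ovaries held 0.0835, 0.0832 and 0.0299, each below the lowest wild type array, and Cyp19a1 fell by 2.35 ± 0.73 (log2; 5.11-fold lower, adjusted p = 0.026 in limma). The call was lost without wild type array 2 (adjusted p = 0.173) or 3 (0.128), without null array 3 (0.139) and with a pseudocount of 0.1% (0.22), and without wild type array 1 the change was -3.18. Double null ovaries held 1.94e-05, 0.0201 and 5.04e-06, 2 of them under the pseudocount, and against wild type the gene fell by 4.64 ± 0.73 on the log2 scale (adjusted p = 9.96e-06 in limma), a size that the pseudocount sets in part. That value was -5.46 without wild type array 1, and between -6.96 and -2.89 with pseudocounts of 0.1% and 5%. Against Wnt4-null ovaries, the double null did not overlap but the difference of -2.28 ± 0.73 was not called (adjusted p = 0.189 in limma). The interaction of Foxl2 with Wnt4 was 0.75 ± 1.03 for Cyp19a1 (adjusted p = 0.951 in limma), with 0 of 6 members and 0.379% of all genes called. At an unadjusted p under 0.05 there were 2 members. The Wnt4-null controls carried Foxl2+/- and the others were wild type, so this value also holds a difference in control Foxl2 dose.

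Of 8 markers of pregranulosa cells, the 6 other than Foxl2 and Wnt4 had a summed signal at P0 of 14.8 to 17.1 in wild type, 17.9 to 24.5 in Foxl2-null, 6.78 to 9.26 in Wnt4-null and 2.44 to 6.07 in double null ovaries. In the Kit mutant background the sum was 21.2 to 24.7 with Foxl2 and 20.2 to 22.2 without it. Compared with wild type, the sum was lower in both groups without Wnt4 and not lower in Foxl2-null ovaries. Foxl2 itself fell by 1.55 ± 0.51 on the log2 scale in Wnt4-null ovaries of P0 (adjusted p = 0.0401 in limma), which by their labels carried Foxl2+/-. The part of Foxl2 in the fall of Cyp19a1 without Wnt4 was not tested. Nor was the part of the 6 markers in its fall without Wnt4 or without Foxl2. Testes of P0 held 0.0878, 0.055 and 0.088 of Cyp19a1, all below the ovaries (-2.07 ± 0.73 log2, adjusted p = 0.0333 in limma). That call was lost without ovary array 2 (adjusted p = 0.178) or 3 (0.135) and without testis array 1 (0.0568), 2 (0.103) or 3 (0.0582), and without ovary array 1 the change was -2.90. The genes most like Cyp19a1 over the group means were Efr3b (r = 0.832), Slc25a26 (0.761), Tgfb1i1 (0.744), Akr1c18 (0.742) and Slc9a8 (0.731).

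Hsd17b7, an enzyme of both estradiol and cholesterol synthesis, was called in 2 of the 19 comparisons by its brightest probe set, loss of Foxl2 in the Kit mutant background and E16 against E13. Its E15 signals were 1.6 and 0.927 in controls and 0.732 and 0.808 in Wnt4-null ovaries (-0.66 ± 0.33 log2, adjusted p = 0.408 in limma). At P0 they were 0.528, 1.23 and 1.11 in wild type, 0.783, 0.537 and 0.537 in Wnt4-null and 0.77, 0.714 and 0.714 in double null ovaries, with log2 differences from wild type of -0.56 ± 0.27 (adjusted p = 0.193 in limma; -0.93 and called without wild type array 1, 0.0146) and -0.29 (0.509). The wild type arrays ran across both mutant groups. Foxl2 loss in the Kit mutant background took it from 0.764, 1.87 and 1.03 to 0.479, 0.439 and 0.56, with no overlap, a fall of 1.20 ± 0.27 (log2; 2.30-fold lower, adjusted p = 0.0173 in limma). This call was lost without Kit mutant array 2 (-0.84, adjusted p = 0.154), without Kit mutant Foxl2-null array 1 (0.0592) or 2 (0.0724) and with these 6 arrays fitted alone (0.412). From E13 to E16 Hsd17b7 rose by 0.83 ± 0.27 (adjusted p = 0.0467 in limma). That call was lost without any 1 of the 6 arrays (adjusted p = 0.0641 to 0.16 in limma). It was also lost with array medians made equal (0.288), quantile normalization (0.0874), the replicate block (0.0522) and a pseudocount of 0.1% (0.0508).

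The 4 probe sets of Hsd17b7 did not move as 1, with correlations of -0.042 to 0.893 between pairs over the group means. Probe set 1440057_at gave 0.469, 0.325 and 0.325 in E13 controls and 0.164, 0.128 and 0.182 in Foxl2-null ovaries, a fall of 1.18 ± 0.24 on the log2 scale (adjusted p = 0.00934 in limma). The other 3 probe sets of Hsd17b7 gave 0.28, 0.75 and 0.58 there, none called. Over the 3 ages 1440057_at fell by 0.80 ± 0.14 on the log2 scale (adjusted p = 0.000783 in limma), against -0.41 ± 0.15 for the brightest probe set (adjusted p = 0.179; -0.54 and 0.0441 without wild type array 1 of P0). At E16 the brightest set gave -0.97 ± 0.27 (adjusted p = 0.128 in limma; 0.0229 with these 6 arrays alone) and the others -0.62, -1.76 and -1.23. Probe set 1417871_at fell by 2.07 ± 0.42 on the log2 scale with Foxl2 loss in the Kit mutant background (adjusted p = 0.00815 in limma), where the brightest set also fell. The remaining probe sets were not called there. Their group means with and without Foxl2 were 0.455 and 0.429 (1440057_at) and 0.499 and 0.171 (1448865_at). Erythroid markers differed at E16 as well, with a summed signal of 1.1 to 1.63 in wild type, 8.02 to 25.1 in Foxl2-null and 1.58 to 25.6 in Foxl2+/- ovaries (5 genes, 3 called as raised on Foxl2 loss). Their part in the result was not tested.

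**Figure D3:**
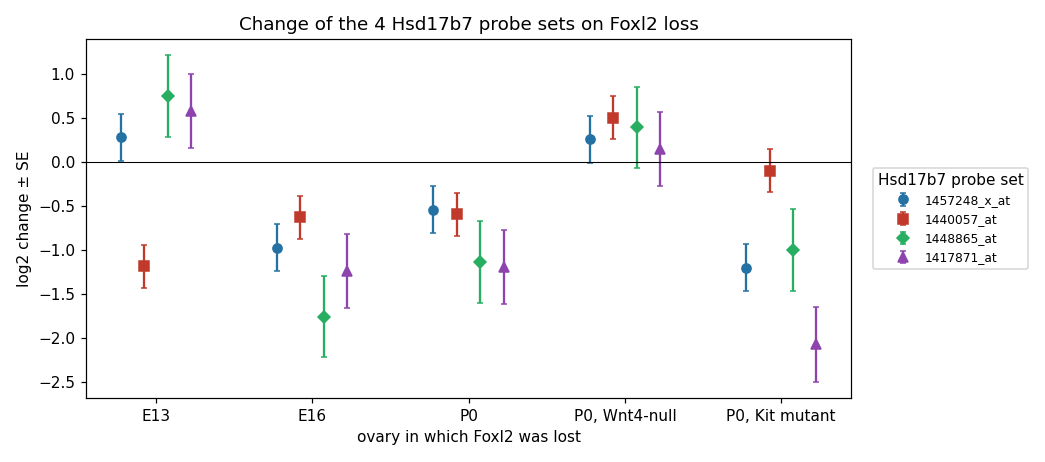
Log2 change (± SE) of the 4 Hsd17b7 probe sets with loss of Foxl2 in 5 comparisons, with a symbol and color for each probe set. At E13 probe set 1440057_at lies at -1.18 and the other 3 lie between 0.28 and 0.75.

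Genes most like Hsd17b7 over the group means were Ntn4 (r = 0.761), Peg10 (0.75), B3gat1 (0.749), Shisa9 (0.748) and Pla2r1 (0.695). Among the members themselves, the highest correlations over the 15 group means were 0.596 between Hsd17b1 and Esr2 and 0.578 between Hsd17b7 and Cyp19a1, given as a description.

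Esr2, the estrogen receptor of granulosa cells, rose in Wnt4-null ovaries of E15. Its signals were 0.000555 and 0.0355 in controls and 0.267 and 0.261 in null ovaries, the highest group mean of the series. The change was 3.64 ± 0.62 (log2, adjusted p = 0.000671 in limma), and 2.25 to 5.14 with pseudocounts of 5% and 0.1%. Control array 1 lay under the pseudocount: without it the change was 2.59 and not called (adjusted p = 0.0561), and without control array 2 it was 4.70. At P0 wild type and Wnt4-null ovaries overlapped, at 0.113, 0.188 and 0.214 against 0.231, 0.148 and 0.195 (0.17 ± 0.51 log2, adjusted p = 0.903 in limma). Between E15 and P0 the compared groups also differed in strain mixture and in Wnt4 and Foxl2 genotype. The effect at P0 minus that at E15 was -3.47 ± 0.80 (adjusted p = 0.0186 in limma), where 1.91% of all genes and 2 of 6 members were called. This call was lost without E15 control array 1 (-2.42, adjusted p = 0.209), without E15 null array 1 (0.055) or 2 (0.0878) and without wild type array 2 (0.0542) or 3 (0.05) of P0, and without E15 control array 2 the value was -4.52. The sum of the 6 pregranulosa markers other than Foxl2 and Wnt4 at E15 was 24.0 to 24.5 in controls and 15.3 to 16.9 in Wnt4-null ovaries, and their part in the result was not tested.

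Loss of Foxl2 lowered Esr2 at P0. Foxl2-null ovaries held 0.000477, 0.00907 and 0.0547, all below wild type, and Esr2 fell by 2.91 ± 0.51 on the log2 scale (2 of the null arrays being under the pseudocount; adjusted p = 0.000812 in limma). The change was -4.15 to -1.68 with pseudocounts of 0.1% and 5%, was -3.64 without null array 3, and was not called when these 6 arrays were fitted alone (adjusted p = 0.102). At E13 all 3 Foxl2-null arrays (0.137, 0.15 and 0.12) lay above the controls (0.0951, 0.0852 and 0.0631), a difference of 0.69 ± 0.51 that was not called (adjusted p = 0.486 in limma). The effect at P0 minus that at E13 was -3.60 ± 0.72 (adjusted p = 0.0132 in limma). The 12 arrays alone did not call it (adjusted p = 0.203 in limma), and it was -4.33 without null array 3 of P0. By the labels the E13 controls were Foxl2+/- and those of P0 wild type, so control Foxl2 dose differed with age. In the Wnt4-null background double null ovaries held 0.159, 0.0283 and 0.187 and overlapped the Wnt4-null ones (-0.87 ± 0.51 log2, adjusted p = 0.625 in limma). In the Kit mutant background signals were 0.206, 0.111 and 0.104 with Foxl2 and 0.108, 0.0876 and 0.103 without it (-0.40 log2, adjusted p = 0.917 in limma). Neither difference between backgrounds was called, at 2.04 ± 0.72 for Wnt4 (95% interval 0.59 to 3.49, adjusted p = 0.378 in limma) and 2.51 ± 0.72 for Kit (adjusted p = 0.358 in limma). In both differences the controls of the mutant background carried Foxl2+/- and the others were wild type, so background and control dose cannot be told apart. Against wild type, the double null ovary gave -0.70 ± 0.51 (adjusted p = 0.389 in limma). Genes most like Esr2 over the group means were Tprg (r = 0.81), Zfp78 (0.807), Ace (0.807), Icam2 (0.806) and Arhgef15 (0.805).

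Esr1, the other receptor, rose between E13 and E16 in the ovary and was not called on loss of Wnt4 or of Foxl2 alone. Ovaries held 0.927, 0.783 and 0.645 at E13 and 2.39, 2.41 and 2.04 at E16, with no overlap, a rise of 1.54 ± 0.21 (adjusted p = 6.25e-06 in limma). Its 3 probe sets correlated at 0.868 to 0.97 over the group means, and the other 2 were also called between these ages, at 1.26 and 0.85. E15 controls, of another strain mixture, were near the E13 level by the brightest probe set alone, at 0.908 and 0.895. By the others, group means at E13, E15 and E16 were 0.584, 1.13 and 1.41 (1460591_at) and 0.306, 0.575 and 0.564 (1421244_at). With Wnt4 lost, Esr1 gave 1.06 and 0.639 at E15 (-0.13 ± 0.25 log2, adjusted p = 0.904 in limma). At P0 it gave 1.98, 2.56 and 2.42 in wild type against 1.69, 1.89 and 1.85 in Wnt4-null ovaries (-0.35 ± 0.21, adjusted p = 0.329). With Foxl2 lost at P0 it gave 1.72, 2.49 and 1.71 (-0.25 log2, adjusted p = 0.937 in limma), and in the Kit mutant background 2.4, 2.01 and 3.21 with Foxl2 and 2.7, 2.45 and 2.54 without it (0.04 log2, adjusted p = 0.99).

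Double null ovaries were the exception for Esr1, at 1.32, 1.74 and 1.36. All 3 arrays were below wild type, and the brightest probe set fell by 0.65 ± 0.21 on the log2 scale (adjusted p = 0.0222 in limma). The call was lost without wild type array 2 (adjusted p = 0.102) or 3 (0.0699) and without double null array 1 (0.0962) or 3 (0.0792). The other probe sets of Esr1 had lower means in double null ovaries but were not called. Group means in wild type and double null ovaries were 1.93 and 1.36 (1460591_at) and 1.01 and 0.70 (1421244_at). Against Wnt4-null ovaries the difference of the brightest probe set was -0.30 (adjusted p = 0.699 in limma). Testes of P0 held 1.01, 1.41 and 1.01 of Esr1, all below the ovaries (-1.02 ± 0.21 log2, adjusted p = 0.000297 in limma). Genes most like Esr1 over the group means were Psmf1 (r = 0.936), Megf6 (0.926), Hlf (0.913), Rtl3 (0.911) and Tmem8b (0.91).

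Shbg, the carrier of sex steroids in blood, which the liver also makes, had its highest signals in testes of P0. Signals were 0.447, 0.422 and 0.417 in testes of E13 and 0.203, 0.177 and 0.199 in ovaries (1.11 ± 0.32 log2, adjusted p = 0.0257 in limma). Although the groups did not overlap, that call was lost without ovary array 2 (adjusted p = 0.0877) or 3 (0.0693) and without testis array 1 (0.0816), 2 (0.0736) or 3 (0.0699). Quantile normalization lost it as well (adjusted p = 0.0597 in limma). At P0 testes held 1.11, 0.682 and 1.15 and ovaries 0.142, 0.0593 and 0.135, a rise of 3.07 ± 0.32 (adjusted p = 3e-09 in limma). From E16 to P0 the ovary fell by 1.04 ± 0.32 on the log2 scale (adjusted p = 0.0134 in limma). This was not called without E16 array 1 (-0.70, adjusted p = 0.12) or 2 (0.0812) or without P0 array 2 (-0.67, 0.146). Nor was it called with these 6 arrays alone (0.101), array medians made equal (0.136) or quantile normalization (-0.53, adjusted p = 0.291 in limma). Summed liver markers (4 genes) were 0.153 to 0.314 in ovaries and 1.14 to 2.1 in testes of P0, with 1 of 4 called, and limma called 0 of the 4 with loss of Wnt4, Foxl2 or Kit function (1 of 4 at an unadjusted p under 0.05 for the Kit mutation, 0 for the others). Their part in the result was not tested.

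In mutant ovaries of P0 Shbg rose over wild type where Wnt4 and Foxl2 were both lost. Double null ovaries held 0.377, 0.601 and 0.361, above all 3 wild type and all 3 Wnt4-null arrays (0.26, 0.154 and 0.204). The rise over wild type was 1.95 ± 0.32 (log2; 3.86-fold, adjusted p = 1.69e-05 in limma), whereas the differences of Wnt4-null from wild type (0.88 ± 0.32, adjusted p = 0.0636) and of double null from Wnt4-null (1.07 ± 0.32, adjusted p = 0.135) were not called. All 3 Wnt4-null arrays were nevertheless above wild type, and that difference was called with the filter on low values (0.045), the replicate block (0.0462), without wild type array 1 (1.08, 0.0361) and without Wnt4-null array 2 (1.06, 0.0483). Foxl2 loss alone gave 0.202, 0.196 and 0.139 at P0 (0.70 ± 0.32 log2, adjusted p = 0.603 in limma). At E15 Wnt4-null signals of 0.231 and 0.151 lay below the controls at 0.387 and 0.482 (-1.16 ± 0.39 log2, adjusted p = 0.133 in limma). Strain mixture and the Wnt4 and Foxl2 genotypes of the compared groups also differed between E15 and P0. The effect of Wnt4 at P0 minus that at E15 was 2.04 ± 0.50 (adjusted p = 0.0299 in limma). That call was lost without E15 control array 1 (adjusted p = 0.0674) or 2 (0.127), without E15 null array 2 (0.204), without P0 wild type array 2 (0.113), without P0 null array 1 (0.0988) and with these 10 arrays fitted alone (0.0834).

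Kit mutant ovaries, which also carried Foxl2+/-, had more Shbg than wild type as well. They held 0.532, 0.288 and 0.401, all above wild type, a rise of 1.81 ± 0.32 (3.51-fold, adjusted p = 5.03e-05 in limma), and 0.276, 0.262 and 0.281 when Foxl2 was lost as well (-0.52 log2, adjusted p = 0.667 in limma). The genes most like Shbg over the group means were Arhgef4 (r = 0.876), Hk2 (0.87), Chmp4c (0.856), Atp1b2 (0.822) and Arhgap32 (0.821).

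Most genes that supply androgen, the substrate of aromatase, rose on loss of Wnt4 at P0. Of all genes, 1.5% rose at E15, and 7.07% rose and 9.87% fell at P0. The summed signal of 8 androgen supply genes at E15 was 13.5 to 15.7 in controls and 13.95 to 16.5 in Wnt4-null ovaries. Of these 8 genes 1 rose at E15 (Cyp11a1, which opens steroid synthesis, by 3.20 ± 0.79 log2) and 7 rose at P0, with a median change of 2.12 beside -0.027 for all genes. The P0 genes included Cyp17a1, which turns progestins into androgens (5.50 ± 0.69), Cyp11a1 (4.77 ± 0.64), Hsd17b3, which makes testosterone (4.23 ± 0.47), and Star, which brings cholesterol into mitochondria (2.55 ± 0.32). Foxl2 loss changed 1 of the 8 in each P0 background, always downward. This was Hsd3b1, which acts between Cyp11a1 and Cyp17a1, in the otherwise intact ovary (-1.65 ± 0.35, adjusted p = 0.00886 in limma) and in the Kit mutant (-2.59 ± 0.35, adjusted p = 3.36e-05), and Cyb5a, a helper of Cyp17a1, in the Wnt4-null ovary (-0.92). Cyp11a1, Cyp17a1, Hsd3b1 and Star are also the 4 Leydig markers. Of 18 genes of cholesterol synthesis, which Hsd17b7 also serves, 8 rose and 1 fell on Wnt4 loss at P0 (median 0.687), among them Idi1 (1.68 ± 0.16), Cyp51 (1.49 ± 0.19) and Dhcr7 (1.34), with Fdft1 lower (-1.07). At E15 1 of the 18 rose.

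**Figure D4:**
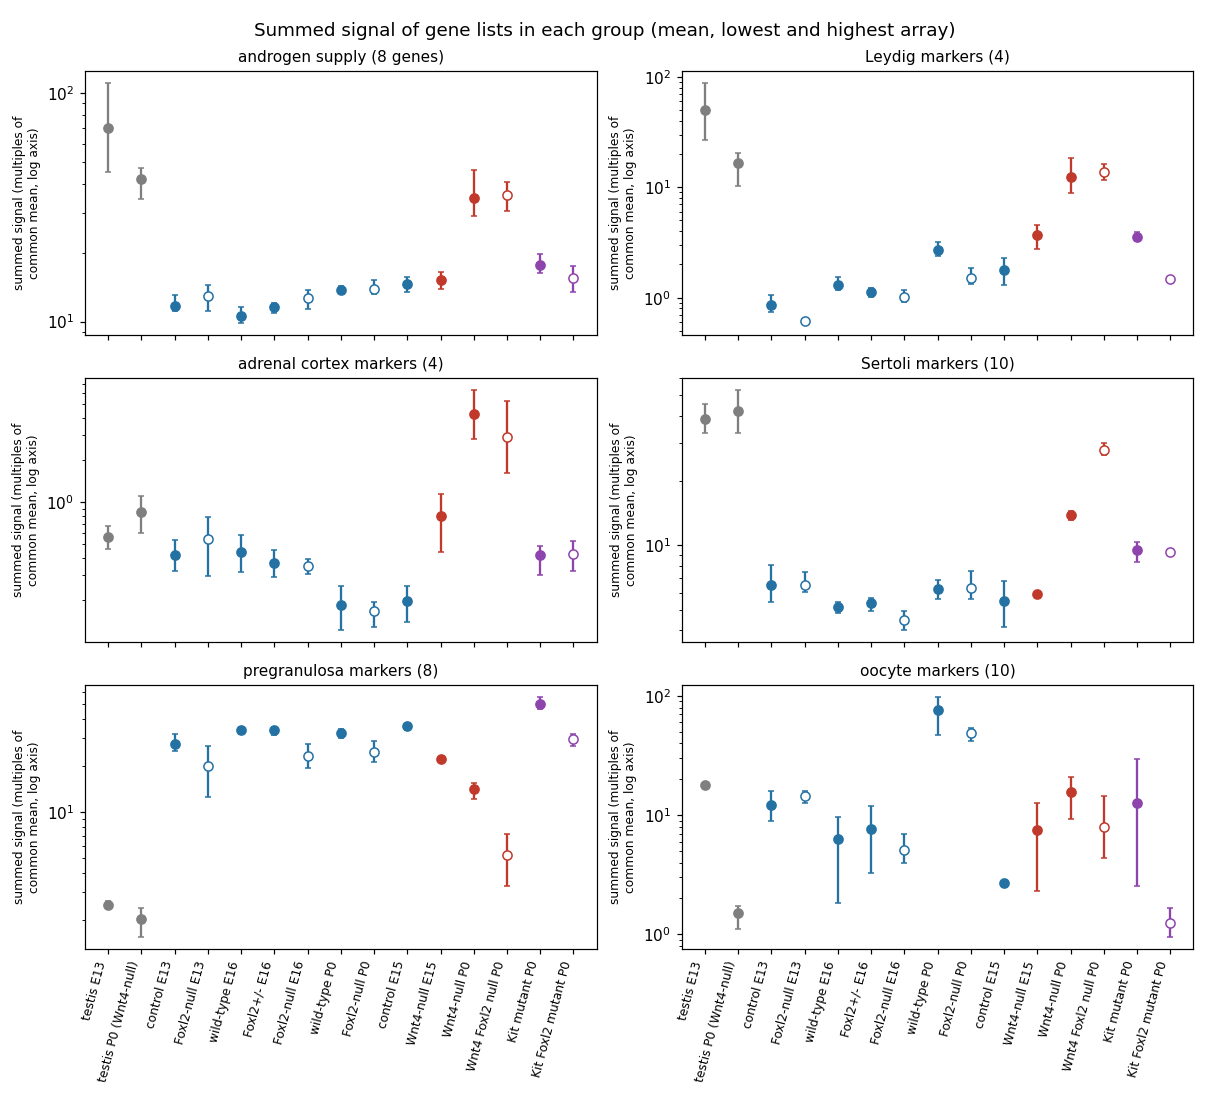
Summed signal of 6 gene lists in the 15 groups (mean of arrays, bars from the lowest to the highest array, log axis). Androgen supply, Leydig and adrenal cortex lists are higher at P0 in both Wnt4-null groups than in wild type, and the pregranulosa list, which holds Foxl2 and Wnt4, is lower.

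Some genes that act on aromatase or answer to estrogen were called. Of all genes, 2.1% were called on Wnt4 loss at E15 and 16.9% at P0. On Foxl2 loss at P0 0.83% were called, and 1.15% in the Kit mutant background. The summed signal of 15 estrogen-responsive genes was 26.4 to 35.3 in wild type and 50.3 to 50.9 in Wnt4-null ovaries of P0. The rise was not particular to Wnt4-null ovaries. At P0 the sum was 45.6 to 48.5 in double null ovaries and 29.3 to 36.8 in Foxl2-null ovaries. In the Kit mutant background it was 41.98 to 44.4 with Foxl2 and 44.8 to 48.05 without it. Of 7 regulators of aromatase, Nr5a2, a nuclear receptor of granulosa cells, rose in Wnt4-null ovaries of E15 (2.08 ± 0.53 log2) and fell by 2.96 ± 0.43 in Foxl2-null ovaries of P0 (adjusted p = 5.6e-05 in limma), where Nr0b1, a repressor of steroidogenic genes, rose by 1.94 ± 0.32 (adjusted p = 0.000335). Nr0b1 also rose with Foxl2 loss in the Kit mutant background (1.68), and Nr2f2 rose on Wnt4 loss at P0 (0.90). Of 15 estrogen-responsive genes 1 rose on Wnt4 loss at E15 (Cxcl12, a chemokine, 2.62 ± 0.45), and at P0 3 rose and 2 fell: Igf1, a growth factor (2.33 ± 0.23), Cxcl12 (2.08) and Greb1 (1.31) were higher, and Ctsd (-0.47) and Tff1 (-1.04) lower. Of these 15, limma called 0 with Foxl2 loss at P0 (1 at an unadjusted p under 0.05) and 1 in the Kit mutant background (Greb1, raised by 1.22).

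Of 12 granulosa and follicle genes, 4 rose and 2 fell on Wnt4 loss at E15, and 3 rose and 2 fell at P0, when the risers were the inhibin and activin subunit genes Inhba (4.68), Inhbb (2.33) and Inha (1.63) and the fallers Fst (-1.07), an activin antagonist, and Kitl (-0.87). In the Wnt4-null ovary loss of Foxl2 lowered Fst (-2.04) and Slc18a2 (-2.24). In the otherwise intact ovary of P0 it lowered Nr5a2 and Slc18a2 (-1.74). Of 7 steroid receptors and relatives limma called 0 with loss of Wnt4 or Foxl2 in any background (0 to 2 at an unadjusted p under 0.05). Of 4 genes of estrogen inactivation it also called 0 (0 or 1 unadjusted), and of 9 receptor cofactors Ep300 fell on Wnt4 loss at P0 (-0.54), Ncoa1 fell on Foxl2 loss at E13 (-0.66) and Nrip1 rose in the double null ovary (0.53).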

How the data were processed

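Per the labels, the 43 arrays carried RNA extracted enzymatically (MELT, Ambion), amplified linearly (Pico Ovation, Nugen) and labelled with biotin (FL-Ovation). What the authors deposited are linear intensities, summarised by plier (R) and brought to 1 global mean, rounded to 3 significant digits. The submitters' processing notes also name GCOS 1.3, with no role. The genome build is not given in the sources used here. Amplification and summary of whole probe sets can compress or mix signals of transcripts.

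Signals are intensities divided by the common array mean. Of 45071 probe sets, 64 controls were left out; 34928 of the rest had 1 gene, 930 several and 9149 none. Log2(signal + 0.01) was fitted with 15 group means (limma 3.58.1, R 4.3.3; 28 residual degrees of freedom, eBayes with trend, two-sided) in 19 comparisons, with Benjamini-Hochberg adjustment over 45007 probe sets. Each SE rests on the variance pooled from every group. No filter on low values was applied. Groups came from the sample titles.

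Members, lists and tests were chosen with earlier results of these data known. Named were all member probe sets, Foxl2, Wnt4, 5 genes most like each member among genes above the median signal (0.256), and up to 3 called genes a direction of each list; marker values are given where they bear on a member. Array numbers paired Foxl2-null and control arrays at E13, by the data alone (residual correlations 0.132 to 0.158, 3 of 3 best with their own number); a replicate block changed no member's call there. Alternatives were the compared arrays alone, pseudocounts of 0.1% and 5%, median scaling, quantile normalization, a filter on low signals, the replicate block and leaving out each array. The fit was tested on simulated data.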

Additional observations from a re-analysis of the deposited data

Results flagged for a closer look

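Tests of a difference between 2 ages were called for members of the set. The effect of Foxl2 loss on Esr2 was lower at P0 than at E13 (log2 difference -3.60 ± 0.72 SE, adjusted p = 0.0132 in limma). If the E13 controls were Foxl2+/-, as labelled, age and control Foxl2 dose cannot be told apart in this test. The effect of Wnt4 loss on Esr2 was lower at P0 than at E15, with a log2 difference of -3.47 ± 0.80 (adjusted p = 0.0186 in limma), and that on Shbg was higher at P0 than at E15, with a log2 difference of 2.04 ± 0.50 (adjusted p = 0.0299 in limma). The E15 groups came from another strain mixture than those of P0. The E15 controls were Wnt4+/-, the P0 controls were wild type, and the P0 Wnt4-null ovaries also carried Foxl2+/-. Age, strain and genotype thus cannot be told apart in the tests of Wnt4 loss.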

How the results depend on the processing

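Of the values of single members that were tested, 396 kept their direction and their side of the threshold under the alternatives other than leaving out an array, 23 lost a call, 13 gained one and 2 reversed: the interaction of Foxl2 with Wnt4 became -1.06 for Cyp19a1 at a pseudocount of 0.1% and -0.052 for Hsd17b1 at 5%. Of the counts of members called, 108 stayed within 1.5 times and 25 moved. With the compared arrays alone, counts went from 2 to 1 for Foxl2 loss in the Kit mutant, testis at E13 and Wnt4 loss at P0 minus E15, from 2 to 0 for Foxl2 loss at P0, from 1 to 0 for P0 against E16 and for Foxl2 loss at P0 minus E13, and from 0 to 1 for Foxl2 loss in the Wnt4-null ovary and at E16. A filter on mean signals under 0.256 removed Cyp19a1 and Esr2 and so gave 1 for Wnt4 loss at E15, Wnt4 loss at P0 minus E15 and Foxl2 loss in the Kit mutant, and 0 for Foxl2 loss at P0 and at P0 minus E13. Median scaling, quantile normalization and a pseudocount of 0.1% each lowered E16 against E13 from 3 to 1. The 0.1% pseudocount lowered Wnt4 loss at P0 from 2 to 1, and quantile normalization lowered Foxl2 loss at P0 and testis at E13 from 2 to 1 and raised the average of Foxl2 loss from 0 to 1. A pseudocount of 5% raised P0 against E16 and the Kit mutation from 1 to 2 and the average from 0 to 1. The replicate block, which rests on array numbers that paired samples at E13 alone (correlations of -0.138 to 0.196 elsewhere), raised the average from 0 to 1 (Cyp19a1 -1.52, adjusted p = 0.0228) and P0 against E16 from 1 to 2; it changed no other count by more than 1.5 times. Without 1 array at a time, counts ranged from 0 to 0 for Foxl2 loss at E13, at E16, in Foxl2+/- ovaries, in the Wnt4-null ovary and for both interactions, from 1 to 2 for Wnt4 loss at E15, Foxl2 loss at P0, at P0 minus E13 and in the Kit mutant, testis at E13 and E16 against E13, from 0 to 2 for the average and for P0 against E16, from 3 to 4 for testis at P0 and the double null, from 1 to 4 for Wnt4 loss at P0, from 0 to 3 for Wnt4 loss at P0 minus E15 and from 1 to 1 for the Kit mutation. The sign of some uncalled values turned in this way: Cyp19a1 (-0.79 to 3.23) and Esr1 (-0.49 to 0.24) on Wnt4 loss at E15, Esr2 on Wnt4 loss at P0 (-0.0849 to 0.35) and in the double null (-1.13 to 0.0527), and Esr1 (-0.11 to 0.22) and Hsd17b1 (-0.16 to 0.0024) with Foxl2 loss in the Kit mutant. The cause was not tested, except for the filter, which removed the genes themselves. Dim signals limit Cyp19a1 and Esr2, whose lowest arrays lay under the pseudocount.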
